A study of Homo sapiens and Mus musculus with 30 samples.

Results

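A cluster of 6 sites of 2′-O-methylation lies in the 5′ domain of 18S rRNA, the RNA of the small ribosomal subunit. The sites are 18S-Cm462, 18S-Am468, 18S-Am484, 18S-Gm509, 18S-Am512 and 18S-Cm517, written below without the RNA's name, where the first letter is the base, m the methyl group and the digits the human position. The rule that takes them uses position and no measured value, out of 108 catalogued rRNA sites, 41 of them in 18S rRNA, and were followed in all 93 libraries. In mouse 18S rRNA they lie 2 nucleotides further on.

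Methylation was measured by RiboMeth-seq, in which total RNA is partly broken by alkali and the ends of the fragments are counted. A 2′-O-methyl group protects the neighbouring bond, so that few read ends fall at a methylated nucleotide. The score is 1 minus the count at the site divided by a weighted mean of its 6 neighbours to either side, and stands for the methylated share of the rRNA, from 0 to 1. The 14 mouse samples, all labelled wild type, were cortex taken on embryonic days E11, E12.5 and E14, then E15.5 and E17, at birth (P0) and in the adult, the hippocampus, cerebellum and olfactory bulb of adult and P0 animals, and the embryonic stem cell line TCF2.2. The 16 human samples came from KOLF2, an induced pluripotent stem cell line, and from H9 and HUES4, which were derived from embryos. Each line was differentiated to endoderm and to mesoderm with a commercial kit, and was also sampled undifferentiated. H9 was in addition taken through neural induction, and sampled as early and as late neural precursors and as mature neurons. Samples OE1 and OE2 are H9 cells that express the small nucleolar RNA SNORD52 constitutively from a transgene, and KO1 and KO2 are H9 cells in which it was knocked out with CRISPR-Cas9. All other human samples are labelled wild type. Each sample had 3 libraries, except undifferentiated H9 with 6. Not given here are the mouse strain, the adult age and the days of differentiation, and rRNA scores hold no marker transcripts against which tissue or cell type could be checked.

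Each of these methyl groups is placed by fibrillarin, the methyltransferase of the box C/D small nucleolar ribonucleoproteins, at the nucleotide that pairs with the guide RNA of the particle. The known guides are SNORD14 (U14) for Cm462, SNORD83 for Am468, SNORD16 for Am484, SNORD11 for Gm509, SNORD70 for Am512 and SNORD56 for Cm517. In yeast, U14 is also required for the processing of the precursor that yields 18S rRNA. SNORD52 guides a uridine of 28S rRNA and none of the 6 sites.

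The stretch is shown as the deposited human 18S sequence has it, 5′ to 3′ from position 454 to 525, with the 6 methylated bases in capitals.
18S stretch: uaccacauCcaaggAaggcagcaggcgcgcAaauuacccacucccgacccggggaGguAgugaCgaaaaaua
The mouse sequence has the same 72 letters, with 0 mismatches. Below are the windows from which each score is computed, which tell which sites share read ends, again with the methylated bases in capitals.
Cm462: ccacauCcaaggA
Am468: CcaaggAaggcag
Am484: gcgcgcAaauuac
Gm509: cggggaGguAgug
Am512: ggaGguAgugaCg
Cm517: uAgugaCgaaaaa
Am484 alone of the 6 has no catalogued site in its window. Cm462 and Am468 stand at the edges of each other's windows, and Am512 has both Gm509 and Cm517 in its own. Leaving catalogued neighbours out of the mean raised the sample scores by at most 0.0229, at Gm509.

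By mean score all 6 sites stood far above the letters between them. The 66 uncatalogued positions of the stretch had mean scores with a median of 0.103 in human and 0.0683 in mouse libraries, and none exceeded 0.424 in human or 0.518 in mouse. The ranges of single libraries overlapped. Position 464 reached 0.778 in a human library and position 525 reached 0.741 in a mouse library, while Cm462 went down to 0.616 and 0.491. Over the 30 samples the mean score was 0.946 ± 0.0288 (SD of samples) at Am512, 0.924 ± 0.0534 at Am484, 0.913 ± 0.0659 at Cm517, 0.9 ± 0.0654 at Cm462, 0.895 ± 0.0696 at Am468 and 0.891 ± 0.0781 at Gm509. Neighbours in this order differed by less than the spread of their samples. A score of at least 0.9 was reached by 89 of 93 libraries at Am512, against 52 at Am468 and 53 at Gm509. In human samples Am512 was among the steadiest sites, since 97 of 106 tested sites had a larger SD over samples, whereas 26 had a larger one than Gm509. The lowest library of all was 0.491, at Cm462 in adult cerebellum, and the highest 0.994, at Am484 in E15.5 cortex.

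Libraries held 1997206 to 40895844 read ends in human and 1536440 to 41455445 in mouse samples. The neighbours of a site carried at least 160.1 read ends per position in human and 112.9 in mouse libraries. The median counting error of a score lay between 0.00509 at Am484 and 0.00805 at Gm509. The median SD between libraries of 1 sample was above that at each site, from 0.00801 at Am512 to 0.0551 at Am468. In single samples the mean counting error exceeded that SD in 1 of 30 samples at Cm462 and in 8 at Am512.

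The general level of the libraries moved with several groups. Taking the median score over all tested sites, E11 cortex had 0.852 ± 0.0141 (SD over its 3 libraries). The value was 0.884 ± 0.0458 in adult cerebellum, 0.904 ± 0.000815 in P0 hippocampus and 0.923 ± 0.0136 in adult olfactory bulb, and between 0.952 and 0.983 in the other brain samples. It was 0.898 to 0.909 in endoderm, 0.892 to 0.912 in mesoderm, and 0.902 and 0.905 in OE1 and OE2, against 0.935 to 0.952 in the undifferentiated lines. Values called scaled below were divided by the upper quartile of their library, and beyond them the part of this level in the results was not tested.

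The index, the short tag that marks a library, moved with the scores too. There were 2 sets of 3 indexes. Set 1 marked cortex from E12.5 to P0, mature neurons, late precursors and the undifferentiated cells of KOLF2 and HUES4, undifferentiated H9 carried both, and set 2 marked the rest. Am468, the SNORD83 target, was lowest with index 1 of set 2 in 21 of 21 samples, with a mean deviation of -0.0822 ± 0.0272 (SD) from the mean of the sample. Am484 was lowest there in 19 samples, with a deviation of -0.0361 ± 0.0187. Cm462 went the other way, highest with index 1 in 13 samples and lowest with index 3 in 13. In set 1 the mean deviations of the 6 sites lay between -0.00865 and 0.0061. In undifferentiated H9 Cm462 averaged 0.834 ± 0.0891 (SD, n = 3 libraries) with set 1 and 0.973 ± 0.0189 with set 2, while Am512 averaged 0.92 ± 0.0154 and 0.922 ± 0.00633.

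**Figure D1:**
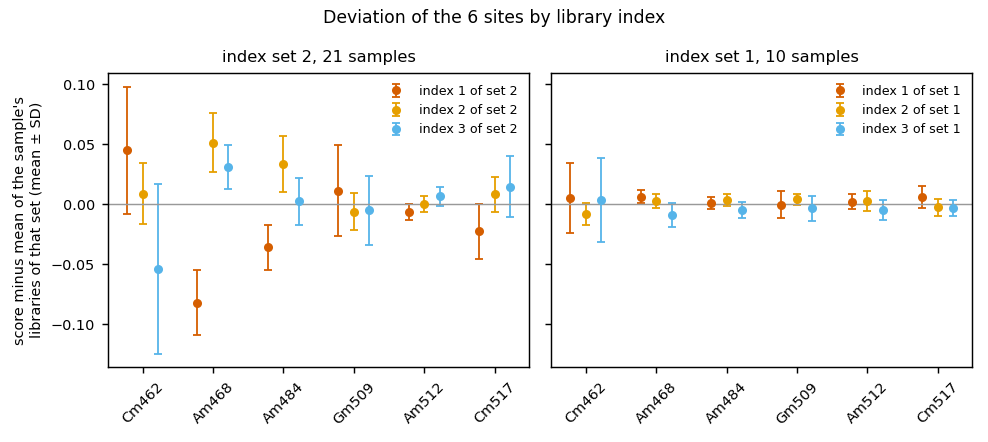
Mean deviation of the score from the mean of the sample's libraries of the same index set (y axis, fraction) for the 6 sites (x axis) and each index (colour), with bars for the SD over samples, 21 samples with set 2 on the left and 10 with set 1 on the right. Am468 lies at -0.0822 with index 1 of set 2, and all deviations of set 1 lie between -0.00865 and 0.0061.

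The score can also be made from 5′ ends or from 3′ ends of the fragments alone, and the sites differed in how these compared. At Cm462, the U14 target, the 5′ score stayed between 0.941 and 0.996 while the 3′ score ran between 0.64 and 0.966, and the 5′ score was the higher in 30 of 30 samples. Cm517, the SNORD56 target, was the reverse, with 3′ scores between 0.871 and 0.998, 5′ scores between 0.589 and 0.977, and the 5′ score higher in 2 samples. Both sites thus spread along 1 kind of end. In adult cerebellum Am468 had 0.968 from 5′ ends and 0.676 from 3′ ends, and Am484 had 0.94 and 0.679. Gm509 was low from both in E11 cortex, at 0.752 and 0.61. Am512 had its lowest values there too, 0.799 and 0.866.

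**Figure D2:**
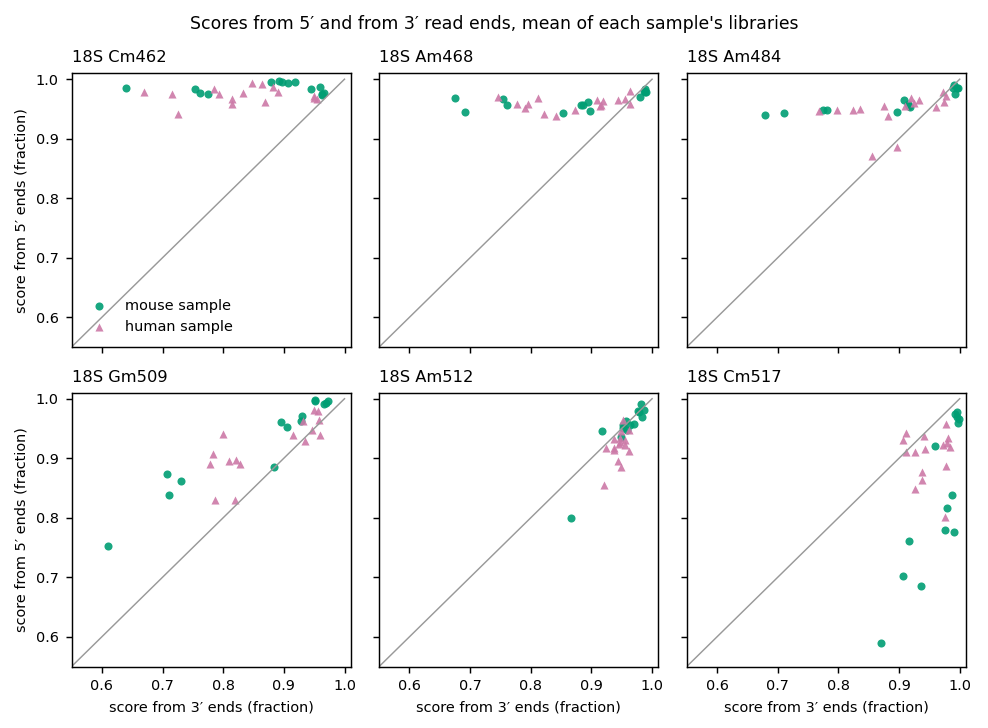
Score from 5′ read ends (y axis) against score from 3′ read ends (x axis), both fractions and means of a sample's libraries, for each site in 14 mouse samples (circles) and 16 human samples (triangles), with the line of equal scores. Cm462 spreads along the 3′ axis, between 0.64 and 0.966, and Cm517 along the 5′ axis, between 0.589 and 0.977.

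The cortex series asks how the sites move as the mouse cortex forms. Am512, the SNORD70 target, climbed through the embryonic stages. Its libraries read 0.816, 0.816 and 0.854 at E11, 0.949, 0.951 and 0.934 at E12.5, 0.971, 0.971 and 0.94 at E14 and 0.973, 0.986 and 0.975 at E15.5. They read 0.988, 0.992 and 0.976 at E17, 0.986, 0.98 and 0.989 at P0 and 0.979, 0.98 and 0.97 in the adult. The E11 libraries lay below all others, and those of E12.5 below all from E15.5 on. Gm509, the SNORD11 target, averaged 0.687 ± 0.0232 (SD, n = 3) at E11, between 0.96 and 0.977 from E12.5 to P0, and 0.951 ± 0.019 in the adult. Cm462 averaged 0.821 ± 0.0852 at E11, 0.943 to 0.961 from E12.5 to P0 and 0.965 ± 0.00509 in the adult. At both, E11 stood apart and the later stages lay close together.

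A slope over the 7 stages was fitted with limma across all tested sites, and a site was called at a Benjamini-Hochberg adjusted p below 0.05. Of the 6 sites 3 rose, against 64.5% of 107 tested sites. The slope per stage was 0.0298 ± 0.00851 (SE) at Gm509 (adjusted p = 0.00598), 0.0196 ± 0.00413 at Am512 (adjusted p = 0.000389) and 0.0151 ± 0.00528 at Cm462 (adjusted p = 0.0199). The median slope of the 6 was 0.0164, beside 0.0121 over all tested sites. With the index as block all 6 rose, against 92.5% of all tested sites. Am484, at 0.0146 ± 0.00661 (adjusted p = 0.0527), passed without any 1 of 9 libraries of E12.5, E14 or the adult, and Am468, at 0.0178 ± 0.00892 (adjusted p = 0.0756), without adult library 3 (adjusted p = 0.0166). Without E11 the calls were Am512, which rose by 0.00683 (adjusted p = 0.00485), and Am484 and Cm517, which fell, with slopes of -0.00671 (adjusted p = 0.0195) and -0.0127 (adjusted p = 0.00691), against 27.1% of all tested sites higher and 19.6% lower. There the slope was -0.000179 at Gm509 (adjusted p = 0.946), 0.00128 at Cm462 (adjusted p = 0.663) and -0.0096 at Am468 (adjusted p = 0.0754). Cm462 also missed the threshold without either of 2 E11 libraries (adjusted p = 0.07 and 0.0711) and scaled (adjusted p = 0.0925). From E12.5 to P0, where all libraries share 1 index set, Am512 was the single call of the 6, against 44.9% of all tested sites, with 0.0106 per stage (adjusted p = 0.000139) and 0.00966 scaled (adjusted p = 0.000215).

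Am468, Am484 and Cm517 shared another course, with lower scores at both ends of the series. Cm517 averaged 0.786 ± 0.0603 (SD, n = 3) at E11, 0.985 to 0.989 from E12.5 to P0 and 0.899 ± 0.0281 in the adult. Am468 averaged 0.749 ± 0.104, then 0.977 to 0.987, then 0.908 ± 0.0688. Am484 averaged 0.805 ± 0.071, then 0.985 to 0.992, then 0.943 ± 0.0292. E11 and adult libraries carry index set 2 and the stages between them set 1, so that stage and index set cannot be told apart at those steps. Between the adult and E11, which share a set but no library number (the number after L in the deposited column headers, which some samples share), all 6 sites were higher in the adult, against 84.1% of all tested sites, most at Gm509 (difference 0.263, adjusted p = 0.000158) and least at Cm517 (0.113, adjusted p = 0.0205). Scaled, Gm509 (0.214, adjusted p = 0.000515) and Am512 (0.0852, adjusted p = 0.00668) passed, against 33.6%.

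**Figure D3:**
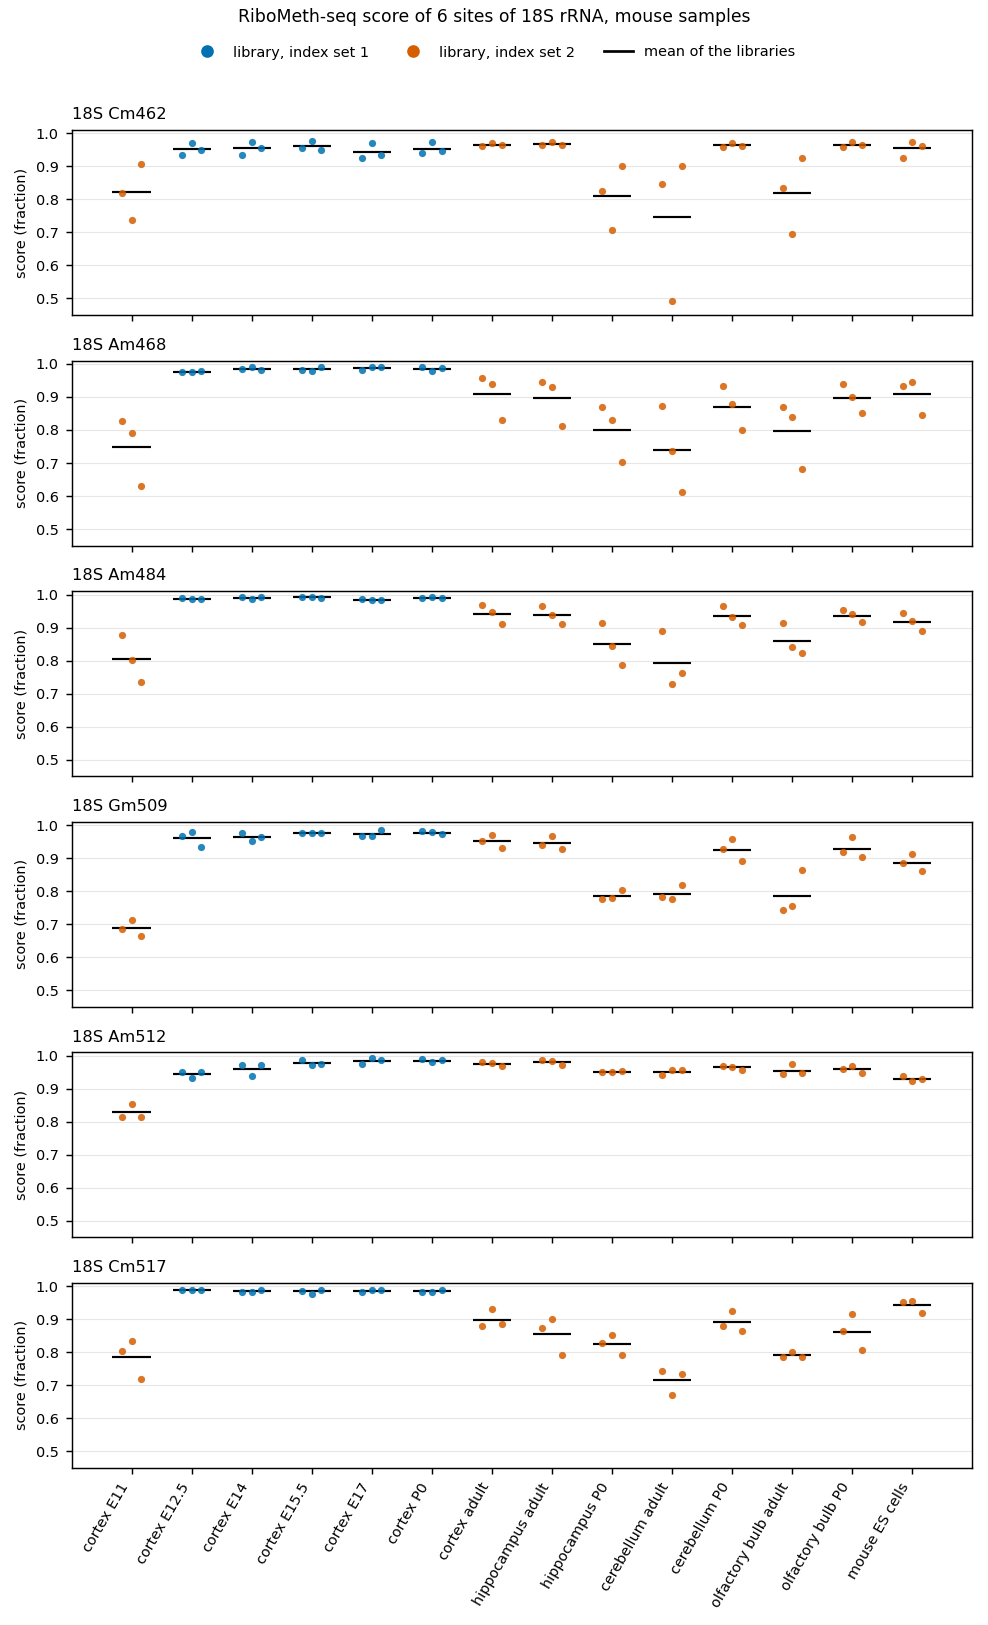
Score (y axis, fraction, not starting at 0) of the 6 sites in the 14 mouse samples (x axis), with 1 point per library coloured by index set and a bar at the mean. E11 is the lowest cortex sample at each site, and adult cerebellum averages 0.746 at Cm462 but 0.952 at Am512.

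The brain regions ask whether the sites differ between parts of the brain and with age. In the adult the means of all 6 sites were lower in cerebellum and olfactory bulb than in hippocampus and cortex, least so at Am512. The median score over all tested sites was lower in those regions too, at 0.884 and 0.923 against 0.965 in hippocampus and 0.965 in cortex. Gm509 read 0.775, 0.781 and 0.818 in adult cerebellum, 0.754, 0.743 and 0.864 in olfactory bulb, 0.967, 0.94 and 0.927 in hippocampus and 0.969, 0.952 and 0.931 in cortex. Neither cerebellum nor olfactory bulb overlapped with hippocampus or cortex. Cm517 averaged 0.716 ± 0.0383 (SD, n = 3), 0.791 ± 0.009, 0.856 ± 0.0561 and 0.899 ± 0.0281 in the same order. Am512 averaged 0.952 ± 0.00867, 0.955 ± 0.016, 0.98 ± 0.00852 and 0.976 ± 0.00573. Cm462 spread most between libraries, from 0.491 to 0.901 within adult cerebellum.

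Over the 4 adult regions, whose libraries share a library number, limma's F test called 4 of the 6 sites, against 47.7% of all tested sites. They were Gm509 (adjusted p = 0.0069), Cm517 (adjusted p = 0.0204), and Am484 and Am512 (adjusted p = 0.0358 each). Every call but that of Gm509 was lost without at least 1 single library. Leaving out any 1 cortex library ended those of Am484 and Am512, and so did some libraries of the other regions, with adjusted p of at most 0.0852. Cm517 missed the threshold without cortex library 1 (adjusted p = 0.0597), cortex library 2 (adjusted p = 0.0579) or hippocampus library 2 (adjusted p = 0.0523). The index block added Am468 (adjusted p = 0.00891), against 65.4% of all tested sites. Scaled, Gm509 alone of the 6 passed (adjusted p = 0.0154), against 12.1%, and from 3′ ends it did not (adjusted p = 0.0661). At P0 the low region was hippocampus. Cm462 averaged 0.811 ± 0.0978 in P0 hippocampus, 0.965 ± 0.006 in cerebellum and 0.965 ± 0.00782 in olfactory bulb, and Gm509 averaged 0.785 ± 0.0144, 0.925 ± 0.033 and 0.928 ± 0.0305. Hippocampus did not overlap with the other regions at either site. Among these 3 regions limma called Cm462 (adjusted p = 0.0172) and Gm509 (adjusted p = 0.00439), 2 of the 6 against 34.6% of all tested sites. With the index block 5 passed, all but Am512 (adjusted p = 0.128), against 70.1% of all tested sites. Scaled, Gm509 (adjusted p = 0.0116) and Am512 (adjusted p = 0.0429) passed, against 16.8% of all tested sites, and Cm462 did not (adjusted p = 0.0746). Without hippocampus Gm509 and Cm462 missed the threshold (adjusted p = 0.998 each).

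The adult differed from P0 in opposite directions in different regions. The difference adult minus P0 at Gm509 was 0.159 in hippocampus, -0.134 in cerebellum, -0.141 in olfactory bulb and -0.0267 in cortex. At Cm462 it was 0.157, -0.218, -0.146 and 0.0124. At Am512 it was 0.0283, -0.0132, -0.00426 and -0.00891. Adult hippocampus was higher than P0 hippocampus at each of the 6 sites, adult cerebellum and olfactory bulb were lower, and the level of the libraries differed in the same directions. The interaction of region and age was called by limma at 5 of the 6 sites, against 67.3% of all tested sites, with adjusted p between 1.01e-05 at Gm509 and 0.0148 at Cm462. Am468 had 0.0985, and 0.022 without cerebellum library 2 of the adult. With the index as block, which could be fitted without cortex, all 6 passed, with adjusted p between 0.000146 at Gm509 and 0.00882 at Cm462, against 80.4% of all tested sites. Scaled, Gm509, Am484 and Cm517 passed, against 34.6%, and without cerebellum and hippocampus none did, the lowest being Gm509 (adjusted p = 0.107).

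Averaged over the 4 regions, Cm517 was 0.815 ± 0.08 (SD, n = 4 regions) in the adult and 0.89 ± 0.0685 at P0, and Am512 0.966 ± 0.0146 and 0.965 ± 0.0142. Between the ages limma called 0 of the 6 sites, against 1.87% of all tested sites higher and 1.87% lower in the adult, with 0 at an unadjusted p below 0.05 and 0 by edgeR. Without hippocampus 5 of the 6 fell, against 29% of all tested sites, with differences from -0.117 at Cm462 (adjusted p = 0.0386) to -0.089 at Am484 (adjusted p = 0.0392), and Am512 was the exception. Adult and P0 libraries never share a library number, so that age and library number cannot be told apart. Cortex also carries index set 1 at P0 and set 2 in the adult, so that age and index set cannot be told apart there. This holds for the interaction as for the test over the 4 regions.

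In the mouse stem cell line TCF2.2 Cm462 read 0.926, 0.963 and 0.974 and Cm517 0.953, 0.918 and 0.956. Am512 averaged 0.93 ± 0.00717 (SD, n = 3), Am484 0.917 ± 0.0276, Am468 0.908 ± 0.0552 and Gm509 0.887 ± 0.0258. Neighbours in this order overlapped, and the line was compared with no tissue.

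Differentiation of 3 human lines asks which sites change when cells leave the pluripotent state. Gm509, Am468 and Am484 fell in both germ layers. At Gm509 the means in H9, HUES4 and KOLF2 were 0.841, 0.83 and 0.846 in endoderm and 0.808, 0.846 and 0.818 in mesoderm, against 0.925, 0.954 and 0.956 in undifferentiated cells. At Am468 they were 0.842, 0.844 and 0.865 in endoderm and 0.841, 0.831 and 0.85 in mesoderm, against 0.921, 0.951 and 0.961. The line means of neither germ layer overlapped with undifferentiated cells at these sites. Am484, the SNORD16 target, averaged 0.884 ± 0.011 (SD, n = 3 lines) in endoderm and 0.913 ± 0.0119 in mesoderm, against 0.956 ± 0.0126 in undifferentiated cells. Cm462 averaged 0.895 ± 0.015 and 0.852 ± 0.0427, against 0.906 ± 0.0212.

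By limma with the cell line as block 3 of the 6 sites fell in endoderm and none rose, against 43.4% of 106 tested sites lower and 3.77% higher. The differences were -0.106 ± 0.0142 (SE) at Gm509, -0.0941 ± 0.0123 at Am468 and -0.0726 ± 0.00924 at Am484 (adjusted p = 0.000795 each). In mesoderm 4 of the 6 fell and none rose, against 48.1% lower and 3.77% higher of all, with -0.12 ± 0.0142 at Gm509 and -0.104 ± 0.0123 at Am468 (adjusted p = 0.00089 each), -0.0536 ± 0.0173 at Cm462 (adjusted p = 0.0294) and -0.043 ± 0.00924 at Am484 (adjusted p = 0.00575). The median difference of the 6 was -0.0451 in endoderm and -0.0483 in mesoderm, beside -0.0306 and -0.0332 over all tested sites, and both germ layers share the undifferentiated samples. Scaled, the endoderm calls and those of Gm509 and Am468 in mesoderm remained, against 22.6% and 15.1% of all tested sites lower. Cm462 in mesoderm missed the threshold without H9 (adjusted p = 0.0645) or KOLF2 (adjusted p = 0.119), and Am484 without HUES4 (adjusted p = 0.0515) or KOLF2 (adjusted p = 0.0822).

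The germ layer differences of Am468 and Am484 stood in 3′ ends. From those Am468 differed by -0.145 in endoderm and -0.151 in mesoderm, and from 5′ ends by -0.0039 and -0.00655. Am484 differed by -0.156 and -0.0896 from 3′ ends, and by -0.0104 and -0.00997 from 5′ ends. Gm509 in endoderm fell from both, with differences of -0.122 (adjusted p = 0.00266) and -0.0584 (adjusted p = 0.0184).

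Germ layer and undifferentiated libraries never share a library number, and only H9 has the same indexes on both sides. The comparison within H9 took libraries as units and did not pair them by index. Its p-values thus include the spread between indexes, and a lost call does not tell that a difference is absent. There Gm509 fell, with differences of -0.0861 in endoderm (adjusted p = 0.0335) and -0.119 in mesoderm (adjusted p = 0.0156), and so did Cm462, with -0.0923 (adjusted p = 0.0227) and -0.171 (adjusted p = 0.00487). These were 2 of the 6 in each, against 25.5% and 25.5% of all tested sites. Am468 had -0.0719 (adjusted p = 0.26) and -0.0728 (adjusted p = 0.229), and Am484 -0.0595 (adjusted p = 0.172) and -0.0216 (adjusted p = 0.476). Scaled in addition, none of the 6 passed in endoderm, against 11.3% of all tested sites. In mesoderm, scaled, Cm462 fell (-0.145, adjusted p = 0.0121) and Am512 rose (0.0443, adjusted p = 0.0375), 2 of the 6 against 14.2%. In the same scaled fits Gm509 had adjusted p of 0.1 in endoderm and 0.0541 in mesoderm, and Am484 in mesoderm had 0.0133 (adjusted p = 0.653).

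Mesoderm and endoderm were also set against each other. Limma called 0 of the 6 sites, against 2.83% of all tested sites higher and 0% lower in mesoderm, with 2 at an unadjusted p below 0.05 and 0 by edgeR. Those were Cm462 (-0.0433 ± 0.0173, SE) and Am484 (0.0297 ± 0.00924).

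Cm517 took another course in H9 than in the other lines. Its means in H9, HUES4 and KOLF2 were 0.916, 0.913 and 0.918 in mesoderm, against 0.878, 0.955 and 0.973 in undifferentiated cells. The mesoderm means lay close together, and undifferentiated H9 lay below both other lines. The mesoderm difference was 0.0386, -0.0411 and -0.0548, and it varied between lines by limma's F test (adjusted p = 0.0235), the 1 call of the 6 against 17.9% of all tested sites. Without 1 H9 mesoderm library the adjusted p was 0.0755. Without undifferentiated H9 library 4 Cm517 also passed in endoderm (adjusted p = 0.00908). In endoderm the differences were 0.0343, -0.0384 and -0.0484. There limma called 0 of the 6 sites for a difference between lines, against 0.943% of all tested sites, with 2 at an unadjusted p below 0.05 and 1 by edgeR. Cm517 had an adjusted p of 0.0534 there and of 0.0275 with the index block. Without H9, Cm517 fell in both germ layers, with -0.0434 in endoderm (adjusted p = 0.00121) and -0.048 in mesoderm (adjusted p = 0.000811).

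**Figure D4:**
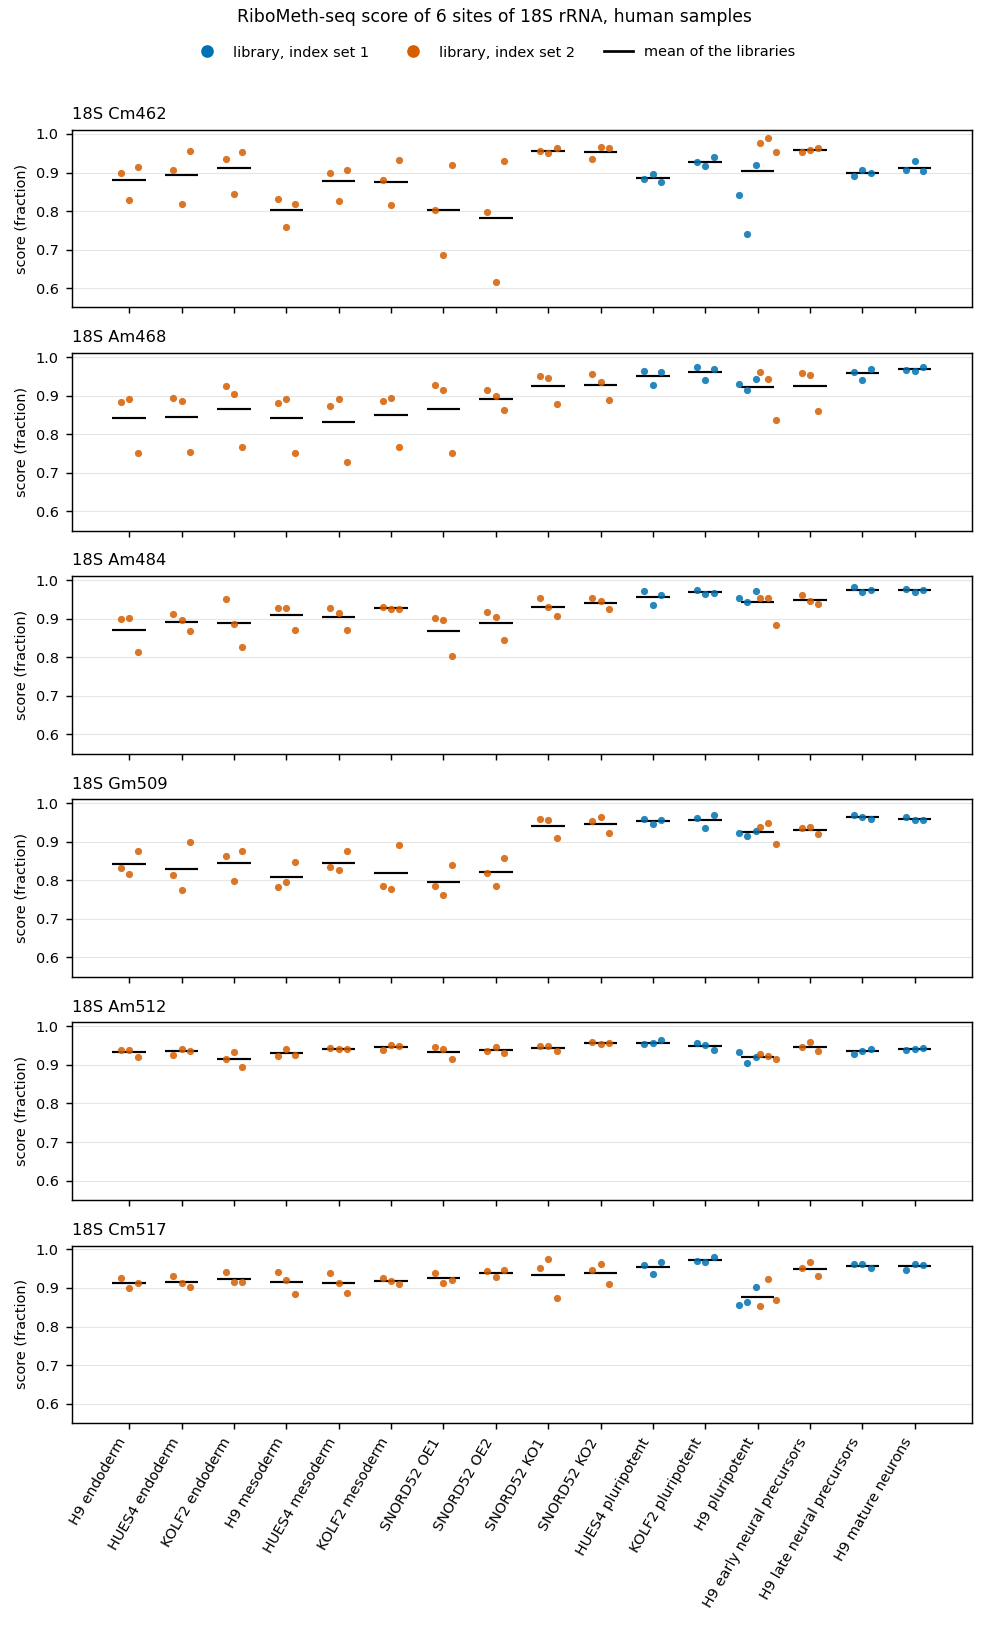
Score (y axis, fraction, not starting at 0) of the 6 sites in the 16 human samples (x axis), with 1 point per library coloured by index set and a bar at the mean. Gm509 averages 0.795 to 0.846 in the germ layers and the overexpressing samples and 0.925 to 0.964 in the other samples, and Cm517 is lowest in undifferentiated H9, at 0.878.

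The neural series of H9 asks how the sites move on the way to neurons. Cm517 was higher at every neural stage. Its 6 undifferentiated libraries ran from 0.852 to 0.922 with a median of 0.867. It read 0.966, 0.93 and 0.953 in early precursors, 0.962, 0.951 and 0.963 in late precursors and 0.961, 0.959 and 0.948 in mature neurons. All neural libraries lay above the undifferentiated ones of H9, which was the lowest of the 16 human samples at this site. Undifferentiated HUES4 and KOLF2 averaged 0.955 and 0.973 there, and the knock-out and overexpressing H9 samples 0.937 and 0.932. Gm509 ran from 0.894 to 0.949 in undifferentiated cells with a median of 0.926, and then averaged 0.932 ± 0.0109 (SD, n = 3), 0.964 ± 0.00497 and 0.96 ± 0.00436. It overlapped with undifferentiated cells at the early stage and lay above them at the later ones. Am512 averaged 0.921 ± 0.0106 (SD, n = 6) in undifferentiated cells, then 0.947 ± 0.0115, 0.935 ± 0.00666 and 0.942 ± 0.0033 (n = 3 each).

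Over the 4 stages limma's F test called Cm517 (adjusted p = 0.000318) and Gm509 (adjusted p = 0.0117), 2 of the 6 sites against 50% of all tested sites, and with the index block also Am468 (adjusted p = 0.00726) and Am512 (adjusted p = 0.0469), against 60.4%. In early precursors Cm517 rose by 0.0722 ± 0.0147 (SE, adjusted p = 0.00118) and Am512 by 0.026 ± 0.00871 (adjusted p = 0.0305), 2 of the 6 against 20.8% of all tested sites higher and 12.3% lower. In late precursors Cm517 rose by 0.0807 ± 0.0147 (adjusted p = 0.000363) and Gm509 by 0.0394 ± 0.0105 (adjusted p = 0.00743), 2 of the 6 against 30.2% of all tested sites higher and 9.43% lower. In mature neurons Cm517 rose by 0.0783 ± 0.0147 (adjusted p = 0.000513) and Gm509 by 0.0349 ± 0.0105 (adjusted p = 0.0163), 2 of the 6 against 34.9% of all tested sites higher and 7.55% lower. The 3 stages share the undifferentiated libraries, and neural and undifferentiated libraries never share a library number. With the index block Am468 rose in late precursors by 0.0286 (adjusted p = 0.0126). There 3 of the 6 passed, against 34% of all tested sites higher and 14.2% lower. In mature neurons, with that block, Am468 rose by 0.0391 (adjusted p = 0.00187) and Cm462 by 0.0793 (adjusted p = 0.0376). Here 4 of the 6 passed, against 42.5% of all tested sites higher and 10.4% lower.

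Against undifferentiated H9 libraries of the same index set Cm517 rose at each stage, by 0.0683 (adjusted p = 0.0427), 0.0845 (adjusted p = 0.00292) and 0.0822 (adjusted p = 0.00322). Gm509 passed there in late precursors and mature neurons, and Am468 in mature neurons (0.0391, adjusted p = 0.0136), while Am512 in early precursors did not (adjusted p = 0.267). The calls at the 3 stages were 1, 2 and 3 of the 6 sites. Of all tested sites 14.2%, 25.5% and 32.1% were called higher there, and 4.72%, 9.43% and 8.49% lower. The rise of Cm517 stood in 5′ ends, at 0.125, 0.133 and 0.118, against 0.00291, 0.00392 and 0.00721 from 3′ ends. From 3′ ends limma called none of the 6 sites at any stage, against 11.3%, 18.9% and 17% of all tested sites. The lowest adjusted p of the 6 was that of Gm509 in mature neurons (0.137). The call of Am512 was lost without either of 2 early precursor libraries (adjusted p = 0.153 and 0.0759) or 1 undifferentiated library (adjusted p = 0.0509), and that of Gm509 in mature neurons without 1 library (adjusted p = 0.0734). Am484, at 0.0314 ± 0.0139 (adjusted p = 0.0857) in late precursors and 0.0309 ± 0.0139 (adjusted p = 0.0868) in mature neurons, was not called. Without undifferentiated library 5, the highest at this site, it rose by 0.0369 (adjusted p = 0.0395) in late precursors and 0.0364 (adjusted p = 0.042) in mature neurons. Without library 6, the lowest, it rose by 0.0196 in late precursors (adjusted p = 0.0372) and 0.0191 in mature neurons (adjusted p = 0.0401).

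**Figure D5:**
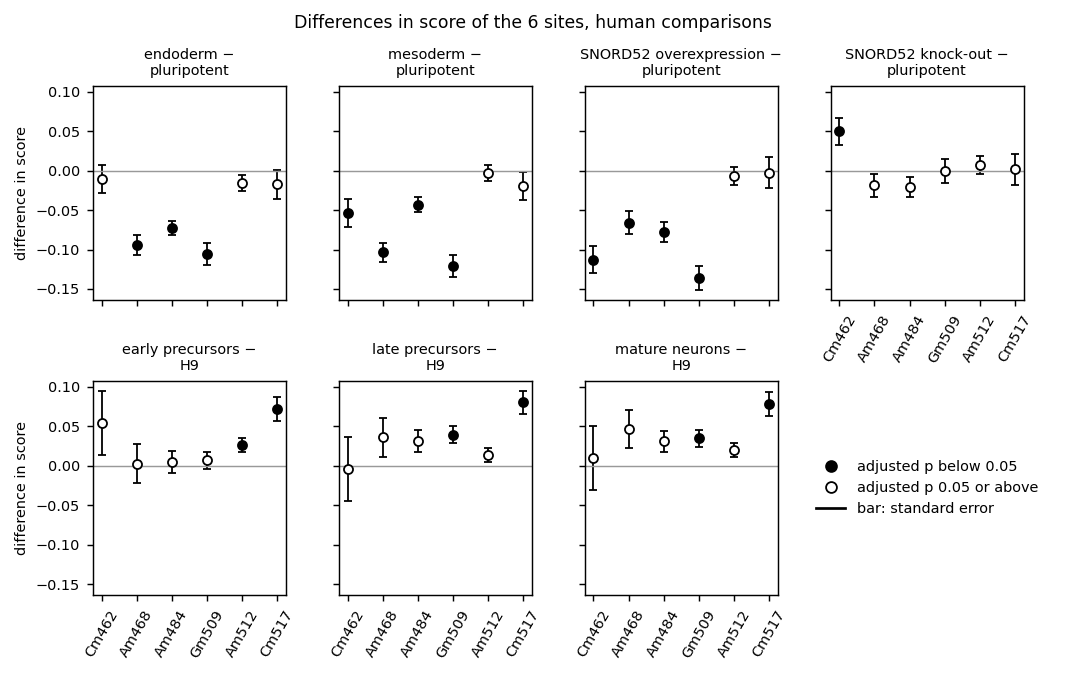
Difference in mean score (y axis, fraction, with bars for the standard error) at each of the 6 sites in the human comparisons, filled where the adjusted p is below 0.05. Gm509 lies at -0.106 in endoderm, -0.12 in mesoderm and -0.137 with SNORD52 overexpression, Cm517 at 0.0722 to 0.0807 in the neural stages, and Am512 between -0.0155 and 0.026 throughout.

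SNORD52 was overexpressed or knocked out in H9 cells, which asks here whether sites that it does not guide differ. Its own target, 28S Um3925 in the numbering of an older 28S record, averaged 0.893 ± 0.034 (SD, n = 3 libraries) in OE1 and 0.895 ± 0.0424 in OE2, 0.0302 ± 0.0523 in KO1 and 0.0158 ± 0.0156 in KO2, against 0.825 ± 0.152 (n = 6) in unedited H9. Gm509 read 0.761, 0.784 and 0.841 in OE1 and 0.786, 0.82 and 0.858 in OE2, against means of 0.925 in unedited H9, 0.954 in HUES4 and 0.956 in KOLF2. Every overexpressing library lay below these means. Cm462 read 0.687, 0.804 and 0.92 in OE1 and 0.616, 0.798 and 0.93 in OE2, against means of 0.903, 0.886 and 0.928, and the highest of its libraries lay above the mean of H9. In the knock-outs Cm462 read 0.956, 0.951 and 0.964 in KO1 and 0.934, 0.966 and 0.964 in KO2, all above the 3 unedited means. Am512 averaged 0.936 ± 0.00227 (SD, n = 2 samples) with overexpression and 0.95 ± 0.00896 in knock-outs, against 0.943 ± 0.0193 (n = 3) in the unedited lines.

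Against the 3 unedited lines 4 of the 6 sites fell with overexpression by limma, against 47.2% of all tested sites. The differences were -0.137 ± 0.0154 (SE, adjusted p = 3.36e-06) at Gm509, -0.113 ± 0.017 (adjusted p = 6.54e-05) at Cm462, -0.0782 ± 0.0127 (adjusted p = 0.000112) at Am484 and -0.0661 ± 0.0146 (adjusted p = 0.0012) at Am468. All 4 also passed scaled, against 29.2% of all tested sites lower and 14.2% higher. From 5′ ends 2 of the 6 passed, against 38.7% of all tested sites. Against H9 libraries of the same index alone Gm509 fell, with -0.119 (adjusted p = 0.00976), and Cm517 rose by 0.0507 (adjusted p = 0.0415), against 20.8% of all tested sites lower and 0.943% higher. The other 3 calls were lost there, with -0.181 (adjusted p = 0.0565) at Cm462, -0.0527 (adjusted p = 0.169) at Am484 and -0.0356 (adjusted p = 0.499) at Am468. In the knock-outs 1 of the 6 rose, against 17.9% of all tested sites. This was Cm462, by 0.05 ± 0.017 (adjusted p = 0.0324), and against H9 libraries of the same index its difference turned to -0.0177 (adjusted p = 0.163). In that comparison Am512 rose by 0.0282 (adjusted p = 0.0296), the 1 call of the 6 against 19.8% of all tested sites higher and 10.4% lower. Cm462 missed the threshold without KO1 (adjusted p = 0.221), KO2 (adjusted p = 0.179) or HUES4 (adjusted p = 0.0983). Without unedited H9, Cm517 fell in the knock-outs, with -0.0271 (adjusted p = 0.038), and with overexpression, with -0.0314 (adjusted p = 0.0138). Edited and unedited libraries never share a library number, and each edited group is 2 samples of 1 line. The same-index comparisons took the libraries of these samples as units, unpaired by index, so their p-values measure the spread between libraries.

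How alike the sites were over samples is given as a description, on scaled sample means that share indexes and library numbers. In mouse Am468 and Am484 went together most closely, with Pearson's r = 0.975 and Spearman's rho = 0.912 over 14 samples. In human it was Am468 and Gm509, with r = 0.856 and rho = 0.779 over 16 samples. Without the 2 samples farthest from the median r was 0.965 and 0.864. The close neighbours Gm509 and Am512 had r = -0.565 and rho = -0.518 in human. In mouse they had r = 0.257 but rho = -0.235, and r was -0.622 without 2 samples, so that its sign rests on those. Outside the 6 (18S by human position, 28S by that older record), the most alike sites in mouse were 18S Am1678 for Am468 (r = 0.981) and Am484 (r = 0.989), 18S Um1288 for Cm517 (r = 0.982), 18S Gm1328 for Cm462 (r = 0.969), 28S Cm3841 for Gm509 (r = 0.929) and 28S Gm2423 for Am512 (r = 0.896). In human they were 18S Gm436 for Gm509 (r = 0.959) and Am484 (r = 0.819), 18S Gm1328 for Am468 (r = 0.921), 28S Gm4228 for Am512 (r = 0.844), 28S Gm4042 for Cm462 (r = 0.821) and 28S Am3718 for Cm517 (r = 0.471). Without 2 samples r was 0.618 for Am512 in mouse and 0.17 for Cm517 in human. Each was the highest of 101 candidate sites in mouse and 100 in human.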

How the data were processed

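Values were deposited as read-end counts per rRNA position and as a methylation score, which per the file headers is a percentage but by its values is a fraction from 0 to 1. RNA fragments of a narrow size class were sequenced on an Ion Proton, per the labels' protocols, and the sources used here do not give the aligner. The deposited score was recomputed from the counts, with weights falling to 0.5 and negative values set to 0, and matched to 4.999e-13 over 10044 values. Of 108 catalogued sites, 107 in mouse and 106 in human had a mean score of at least 0.2 and a mean neighbour count of at least 50 in every sample, among them all 6 sites described here. The tests ran in limma 3.58.1 (R 4.3.3) on the scores, with a trended prior, adjusted over all tested sites at 0.05. Libraries were the units in the cortex, region, line and neural tests. They were also the units in the comparisons with H9 libraries of the same index, which had no block. Sample means were the units in the other main tests, with region or cell line as block except in the SNORD52 comparisons. Where libraries or samples are the units, p-values measure the spread between them, which may be technical. edgeR 4.0.16 on counts, with the neighbour mean as offset, was an alternative, because the score is a ratio. Libraries of the same index deviated together in 122 of 122 pairs of samples (lowest r = 0.25, median 0.62). The index was therefore used as a replicate block in alternative fits, while the main fits had no index block. The fits were tested on simulated data. Counting errors cover counting only, since read ends carry no molecular identifiers. All 6 sites are named, and for each the catalogued site most alike in each species. That rule uses position, but the choice of these sites and of the lists was made with earlier results of these data known.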

Additional observations from a re-analysis of the deposited data

Results flagged for a closer look

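In undifferentiated H9 the library with index 1 of set 2 stood apart at Am484, at 0.885, against 0.955, 0.955, 0.944, 0.953 and 0.971 in the others. H9 was the only sample with enough libraries for this check, which was made at the 6 sites and marks about 1 in 20 groups by chance.

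The change from P0 to the adult differed between brain regions at 5 of the 6 sites by limma's interaction test, against 67.3% of all tested sites. The adjusted p was 1.01e-05 at Gm509, 0.00492 at Cm517, 0.00501 at Am484, 0.00654 at Am512 and 0.0148 at Cm462. Scaled, 3 of the 6 passed, against 34.6%. The mesoderm difference of Cm517 differed between the 3 human lines by limma's F test (adjusted p = 0.0235), against 17.9% of all tested sites. It was positive in H9 at 0.0386 and negative in HUES4 at -0.0411 and KOLF2 at -0.0548.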

How the results depend on the processing

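Of 2274 values of the 6 sites under alternatives, 1978 kept their side of the threshold and, where they have one, their direction, 95 newly passed, 103 no longer passed and 98 turned direction. Of the last, 82 passed in neither setting. Counts below are sites called of 6, and causes were not tested beyond what each alternative changes. Brackets give the share of all tested sites called in the same setting, in either direction. The ranges on leaving out 1 unit are given without it. The cortex slope had 6 with the index as replicate block (95.3%), 6 without the adult (92.5%) and 6 between adult and E11 (86%). From E12.5 to P0 it had 1 (44.9%), and 1 scaled (37.4%). Adult against P0 had 1 with libraries as units (13.1%). Adult regions had 1 scaled (12.1%), 2 with 2 neighbours on each side (41.1%), 2 from 5′ ends (38.3%) and 0 from 3′ ends (1.87%). P0 regions had 5 with the replicate block (70.1%) and 0 without hippocampus (0%). Region by age had 3 scaled (34.6%) and 0 without cerebellum and hippocampus (5.61%), and its replicate block could be fitted only without cortex. Where it was fitted, the replicate block changed no call of the 6 sites beyond those given with the results. Endoderm had 1 from 5′ ends (34.9%) and 0 in H9 at the same index, scaled (11.3%). Mesoderm had 2 scaled (31.1%), 0 from 5′ ends (24.5%) and 2 in H9 at the same index, scaled (14.2%) or not (27.4%). Endoderm by line had 1 each scaled (3.77%), from 5′ ends (13.2%) and on the arcsine scale (4.72%). It also had 1 each by edgeR (9.43%), without a trended prior (5.66%) and with the replicate block (11.3%). Mesoderm by line had 0 with 2 neighbours (14.2%), 3 from 5′ ends (48.1%) and 0 from 3′ ends (1.89%). The neural series had 5 from 5′ ends (86.8%), 0 from 3′ ends (17.9%) and 4 with the replicate block (60.4%). Early precursors had 0 from 3′ ends (11.3%) and 1 at the same index set (18.9%). Late precursors had 4 from 5′ ends (64.2%) and 0 from 3′ ends (18.9%). Mature neurons had 5 from 5′ ends (67.9%), 0 from 3′ ends (17%), 4 by edgeR (52.8%) and 4 with the replicate block (52.8%). The knock-out had 0 from 5′ ends (22.6%), 0 with no minimum on sites (28.7%) and 2 at the same index, scaled (34%). Overexpression had 2 from 5′ ends (38.7%) and 2 at the same index (21.7%). Leaving out 1 library, region, line or sample gave 2 to 5 for the cortex slope, 0 to 5 for adult against P0, 1 to 5 for adult regions, 2 to 3 for P0 regions, 5 to 6 for region by age, 3 to 5 for endoderm, 2 to 4 for mesoderm, 0 to 0 between the germ layers, 0 to 1 and 0 to 1 for endoderm and mesoderm by line, 2 to 3 for the neural series, 1 to 2, 2 to 3 and 1 to 3 for its stages, 0 to 2 for the knock-out and 4 to 5 for overexpression.

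The values that turned direction were these. From E12.5 to P0, direction turned in the cortex slope for Cm462 (-0.000915), Am484 (-0.000153) and Cm517 (-0.000554). From E12.5 to P0, scaled, direction turned in the cortex slope for Cm462 (-0.00195), Am484 (-0.00122) and Cm517 (-0.00163). Without E11, direction turned in the cortex slope for Am468 (-0.0096), Am484 (-0.00671), Gm509 (-0.000179) and Cm517 (-0.0127). From 5′ ends, direction turned in adult against P0 for Am468 (0.00344), mesoderm for Cm517 (0.0236), mesoderm against endoderm for Cm462 (0.00376), Gm509 (0.0175) and Cm517 (0.0431), early precursors for Cm462 (-0.0117), Am468 (-0.00863) and Gm509 (-0.0114), late precursors for Cm462 (0.0132), the knock-out for Cm462 (-0.0133), Am484 (0.00401) and Gm509 (0.00199) and overexpression for Cm517 (0.031). From 3′ ends, direction turned in adult against P0 for Am512 (-0.00434), mesoderm for Am512 (0.00383), mature neurons for Cm462 (-0.00833) and the knock-out for Cm517 (-0.0152). When scaled, direction turned in endoderm for Cm462 (0.0155), Am512 (0.011) and Cm517 (0.00875), mesoderm for Am512 (0.0252) and Cm517 (0.00803), mature neurons for Cm462 (-0.00114), the knock-out for Gm509 (0.00537) and overexpression for Am512 (0.021) and Cm517 (0.0251). With 2 neighbours on each side, direction turned in endoderm for Cm462 (0.0418), mesoderm against endoderm for Gm509 (0.00771) and Cm517 (0.0153) and the knock-out for Gm509 (0.00277) and Cm517 (-0.00887). In H9 at the same index, direction turned in endoderm for Am512 (0.0102) and Cm517 (0.0304), mesoderm for Am512 (0.00758) and Cm517 (0.0347), mesoderm against endoderm for Am512 (-0.00263) and Cm517 (0.00431), the knock-out for Cm462 (-0.0177), Am468 (0.0121), Am484 (0.00521) and Gm509 (0.0172) and overexpression for Am512 (0.0139) and Cm517 (0.0507). In H9 at the same index, scaled, direction turned in endoderm for Am512 (0.0392) and Cm517 (0.0597), mesoderm for Am484 (0.0133), Am512 (0.0443) and Cm517 (0.0719), the knock-out for Cm462 (-0.0157), Am468 (0.0154), Am484 (0.0081) and Gm509 (0.0204) and overexpression for Am512 (0.0393) and Cm517 (0.0775). By edgeR (log2), direction turned in mesoderm against endoderm for Cm517 (0.0732) and the knock-out for Gm509 (0.122). With the replicate block, direction turned in early precursors for Cm462 (-0.0152) and late precursors for Cm462 (0.0658). At the same index set, direction turned in early precursors for Cm462 (-0.0152) and late precursors for Cm462 (0.0658). At the same index set, scaled, direction turned in early precursors for Cm462 (-0.0119) and late precursors for Cm462 (0.0594). On the arcsine scale, direction turned in mature neurons for Cm462 (-0.0149) and the knock-out for Cm517 (-0.00189). Leaving out 1 unit turned it in adult against P0 for Am512 (-0.00881 to 0.00505) and Cm462 (-0.117 to 0.00775), mesoderm for Am512 (-0.00895 to 0.00332), mesoderm against endoderm for Cm517 (-0.00461 to 0.000768), early precursors for Am468 (-0.0144 to 0.0346) and Am484 (-0.00728 to 0.0102), late precursors for Cm462 (-0.0366 to 0.0132), mature neurons for Cm462 (-0.023 to 0.0267), the knock-out for Am512 (-0.00327 to 0.0152), Cm517 (-0.0271 to 0.0206) and Gm509 (-0.0101 to 0.00531) and overexpression for Am512 (-0.0176 to 0.000884) and Cm517 (-0.0314 to 0.0162). Without a region, line or sample that leaves a group with 1 sample, that sample is taken to vary like the rest. The same-index and scaled same-index comparisons, and those without a region, were in part chosen after seeing the data. Depth limits small differences at Am512, where the median counting error was 0.00592 against a median SD between libraries of 0.00801.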
